A study of Homo sapiens with 6 samples.

Results

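Wnt ligands, their receptors and their antagonists were examined in HaCaT cells, a spontaneously immortalized human keratinocyte line. The set was defined by gene symbol and not by expression values, but was chosen with earlier results of these data known. The rule took ligands (*WNT*), *PORCN* and *WLS*, frizzled receptors (*FZD*), *LRP5*, *LRP6*, the *ROR* receptors and the *LGR* receptors with *RNF43* and *ZNRF3*. The set also took in *DKK* and *SFRP* antagonists, dishevelled (*DVL*), *DACT*, *NKD*, *AXIN*, *APC* and the TCF/LEF factors. It comprised 41 of the 12499 genes in the expression table, and all 41 passed the filter on low counts. Other genes that the rule would take, among them *WNT3A*, *WNT5A*, *AXIN2*, *LGR5* and the *SFRP* genes, were not analysed here.

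The study asked which genes respond when ATF7, a stress-responsive transcription factor of the ATF/CREB family, is raised in keratinocytes under diabetic glucose conditions. A lentivirus holding the coding sequence of human *ATF7* (LV-ATF7) or the control lentivirus (LV-NC) was given to the cells for 48 hours, then both groups were kept in high-glucose medium for 24 hours, and polyadenylated RNA was sequenced from 3 libraries per group. All libraries came from the same cell line and no library without virus or high glucose was included. Total counts ranged from 16686472 to 20562768 per library.

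The transcript of the transduced gene ran against the labels. *ATF7* measured 50.6, 46.4 and 52.2 CPM (counts scaled to library size after correction for composition) in LV-NC replicates 1 to 3 and 21.9, 25.7 and 28.0 CPM in LV-ATF7 replicates 1 to 3, a log2 fold change of -0.98 (edgeR adjusted p = 1.89e-04). Whether the labels of the groups were exchanged was not tested. Groups are therefore named by their labels only, and "higher" or "lower" below means in the libraries labeled LV-ATF7 against those labeled LV-NC. LV-NC replicate 1 stood apart from the other LV-NC libraries (correlation of log expression across genes 0.967 to 0.969, against 0.994 between LV-NC replicates 2 and 3). Of the 41 Wnt genes, 10 (24.4%) differed at least 2-fold between that library and the mean of LV-NC replicates 2 and 3, with 0.1 CPM added to both, against 8.33% of all genes tested. Values without it are given wherever they changed a call or moved a fold change by more than 1.5 times.

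Markers of the labeled cell type were checked as well. Keratinocyte markers (17 of 18 analysed) summed to 3599 to 4853 CPM under the LV-NC label and 9210 to 9825 CPM under the LV-ATF7 label. The basal keratin *KRT5* rose from 99.96–355 to 3215–3622 CPM and the basal lineage factor *TP63* from 12.6–18.3 to 219–238 CPM, whereas *KRT14*, the partner of *KRT5*, lay between 0.375 and 12.5 CPM in all 6 libraries. Markers of other cell types were few: 3 of 10 fibroblast genes were analysed (35.1 to 42.7 against 17.4 to 21.8 CPM summed; *DCN* at 0 in LV-NC replicates 2 and 3), 3 of 10 macrophage genes (5.57 to 8.13 against 9.38 to 12.7 CPM; *PTPRC* and *LYZ* not analysed here) and 2 of 7 melanocyte genes (17.5 to 24.8 against 12 to 13 CPM; *TYR* and *MLANA* not analysed here). For endothelial cells 2 of 6 genes were analysed (1.12 to 5.50 against 84.6 to 89.9 CPM, nearly all *CDH5*), and *PECAM1* and *KDR* were not analysed here. The part of these marker differences in the Wnt results was not tested, and in bulk RNA fewer cells of a type and less RNA per cell cannot be told apart.

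Wnt proteins are secreted ligands. PORCN attaches a lipid to them, WLS carries them to the cell surface, and they bind a frizzled receptor together with LRP5 or LRP6. Receptor engagement recruits dishevelled and inactivates the destruction complex (AXIN, APC, GSK3 and casein kinase 1), so that beta-catenin accumulates and acts with TCF/LEF factors in the nucleus. In skin the pathway is known for its part in the maintenance of basal keratinocytes, in hair follicle formation and in wound repair, and other branches control cell polarity and movement.

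Most Wnt genes differed between the groups, with ligands mainly higher and frizzled receptors mainly lower (plot of fold changes by role). Of the 41 genes, 17 were higher and 17 lower at an adjusted p under 0.05, and 7 did not pass. Among all 12462 genes tested, 67.6% passed (34.7% higher and 32.9% lower), so the share of 34 in 41 stood against a high background. With a fold of at least 1.5 added, 17 Wnt genes were higher and 16 lower, against 52.9% of all genes (28.2% higher and 24.6% lower). The median size of the log2 fold change was 1.20 over the 41 genes and 0.67 over all genes tested. The groups did not overlap in 35 of the 41 (17 higher, 18 lower), where 72.7% of all genes did not overlap (38.0% higher and 34.7% lower). With 3 libraries against 3, an exact permutation test of a single value cannot go below p = 0.1, so the calls rest on the fit across all genes.

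**Figure D1:**
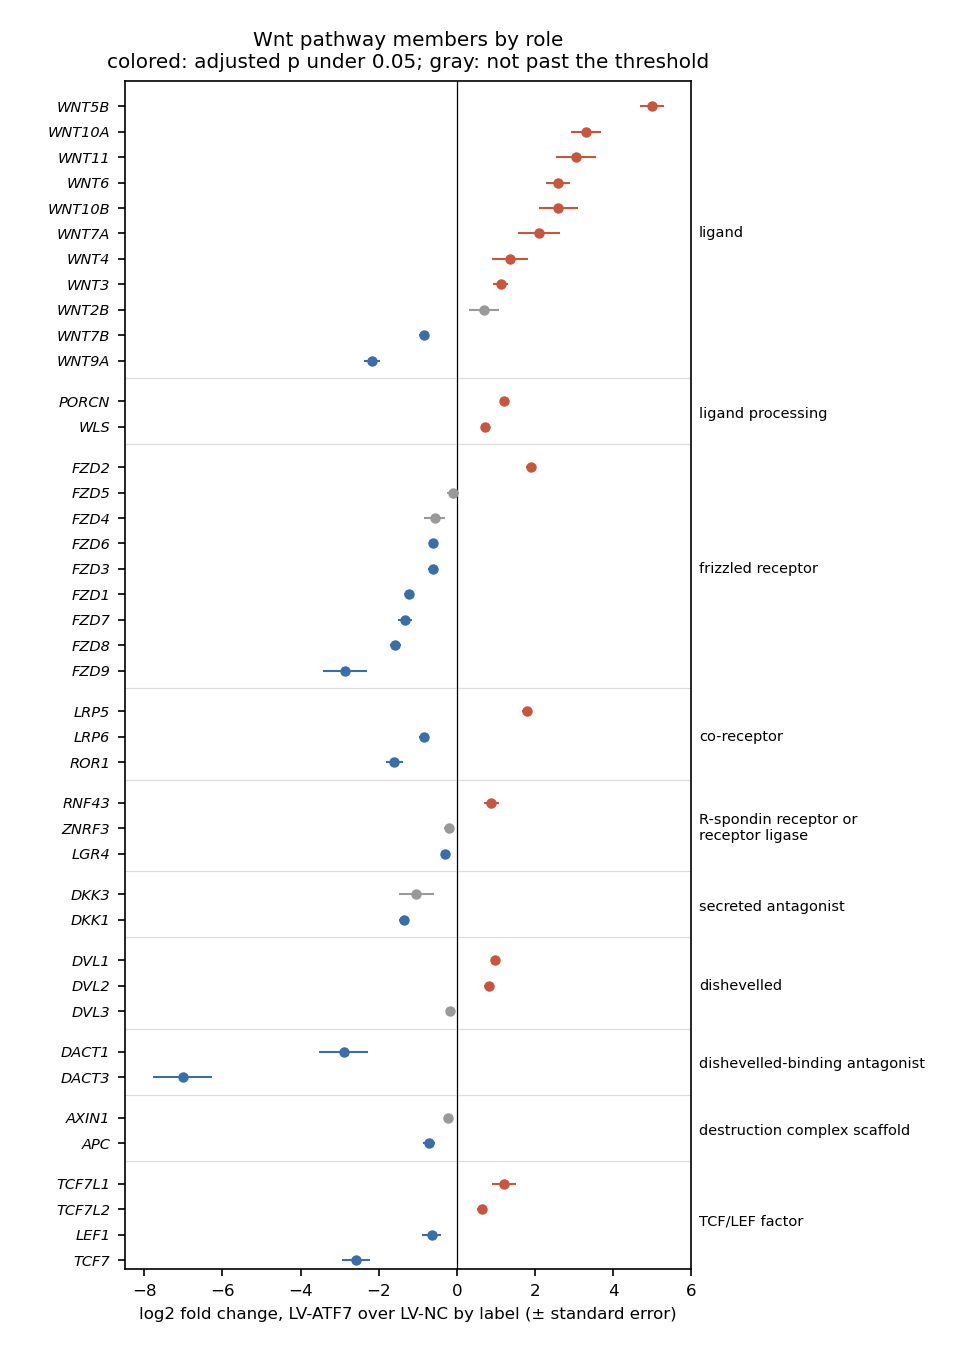
Log2 fold change of each of the 41 Wnt genes, LV-ATF7 over LV-NC by label (x axis), with bars of ± 1 standard error, grouped by role. Red and blue points passed an adjusted p of 0.05 (higher and lower) and gray points did not. Most ligands lie to the right of 0 and most frizzled receptors to the left, with *FZD2* the frizzled gene that was higher. The ligands *WNT5B*, *WNT6*, *WNT10B* and *WNT11* are in the table only through their LV-ATF7 counts.

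Ligand expression differed in make-up and was higher in sum, the latter through *WNT10A*. Of 11 ligands, 8 were higher, 2 were lower and *WNT2B* did not pass. Of the 8, *WNT5B*, *WNT6*, *WNT10B* and *WNT11* are in the table only through their LV-ATF7 counts. They were not tested when at least 10 counts in every library were asked for. *WNT5B*, a ligand mostly linked to beta-catenin-independent signaling, measured 0.428, 0.157 and 0.347 CPM under the LV-NC label and 8.60, 10.1 and 11.6 CPM under the LV-ATF7 label. It was near the detection limit in every LV-NC library (17 counts in all, against 562), and the ratio of the summed rates was 32.7 with a 95% interval of 20.2 to 56.6 that covers counting error only (edgeR adjusted p = 6.59e-06).

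*WNT10A*, a ligand required for teeth, hair and sweat glands, was the most abundant per length of those that were higher. Its levels were 22.2, 7.34 and 9.38 CPM under the LV-NC label and 116, 125 and 144 CPM under the LV-ATF7 label, 9.88-fold higher (log2 fold change 3.30 ± 0.38, edgeR adjusted p = 1.36e-04). LV-NC replicate 1 was the highest of its group by a wide margin, and without it the log2 fold change was 3.92. *WNT6*, the neighbor of *WNT10A* on chromosome 2 (*WNT6* at chr2:218859821-218874233 and *WNT10A* at chr2:218880363-218899581, GRCh38, plus strand, 6.13 kb apart), measured 0.910, 0.681 and 0.463 CPM against 3.41, 4.03 and 5.14 CPM. Both genes of the pair were thus higher, *WNT6* by 2.59 ± 0.31 on the log2 scale (edgeR adjusted p = 1.53e-04). The 250 bases before the annotated start of *WNT6* are shown because they belong to the upstream gene of this pair and overlap no annotated exon. They were taken from RefSeq (GRCh38.p14, plus strand, chr2:218859555-218859804), and none of the motifs searched below was present.
WNT6: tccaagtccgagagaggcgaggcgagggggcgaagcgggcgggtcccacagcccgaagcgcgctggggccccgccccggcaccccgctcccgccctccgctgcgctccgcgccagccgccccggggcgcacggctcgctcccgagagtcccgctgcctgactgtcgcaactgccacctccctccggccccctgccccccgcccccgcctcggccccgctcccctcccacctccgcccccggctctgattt

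*WNT7A*, *WNT4* and *WNT3*, ligands found in epithelia and embryonic patterning, were higher by smaller folds. *WNT7A* measured 8.62, 1.99 and 1.68 CPM against 16.5, 17.4 and 19.2 CPM (log2 fold change 2.11 ± 0.54, edgeR adjusted p = 0.00881). *WNT4* measured 13.1, 4.25 and 3.18 CPM against 17.5, 18.2 and 16.8 CPM (1.35 ± 0.46, edgeR adjusted p = 0.0301). For both, LV-NC replicate 1 lay between the other LV-NC libraries and the LV-ATF7 libraries, and without it the log2 fold changes were 3.24 and 2.21. The *WNT4* call was lost when any other single library was left out, with edgeR adjusted p of 0.0994 and 0.0794 without LV-NC replicates 2 and 3 and of 0.0763, 0.0712 and 0.0844 without LV-ATF7 replicates 1, 2 and 3. *WNT3* was steadier, at 6.32, 4.56 and 4.23 CPM against 9.71, 11.5 and 11.7 CPM (1.12 ± 0.19, edgeR adjusted p = 0.00118).

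*WNT10B* and *WNT11* were low in all libraries. *WNT10B*, which acts in hair follicles and other tissues through beta-catenin, measured 0.107, 0.944 and 0.695 CPM against 4.19, 2.85 and 3.59 CPM (log2 fold change 2.59 ± 0.50, edgeR adjusted p = 0.00207). *WNT11*, known for roles in cell movement, measured 0.375, 0.0524 and 0.289 CPM against 1.34, 2.14 and 2.54 CPM (3.05 ± 0.52, edgeR adjusted p = 0.00105). The groups did not overlap for either gene, but *WNT10B* rested on 32 and *WNT11* on 13 counts in the LV-NC libraries together. *WNT2B* measured 4.18, 1.57 and 1.56 CPM against 4.24, 3.42 and 4.15 CPM, and LV-NC replicate 1 fell inside the LV-ATF7 range (0.69 ± 0.39, edgeR adjusted p = 0.147). Without that library the log2 fold change of *WNT2B* was 1.30 and it passed (edgeR adjusted p = 3.32e-05), as it did with sample weights (limma adjusted p = 4.73e-05). Other annotated genes share 21.2% of the *WNT2B* exon bases, and since strandedness of the counting was not stated, its reads cannot be told from theirs.

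The 2 ligands that were lower were the most abundant per length in the LV-NC libraries. *WNT7B*, an epithelial ligand that signals through beta-catenin, fell from 109, 102 and 105 CPM to 51.1, 56.6 and 67.4 CPM (log2 fold change -0.85 ± 0.12, edgeR adjusted p = 3.57e-04). *WNT9A*, known from joint and skeletal development, measured 30.6, 43.7 and 51.8 CPM against 8.65, 8.67 and 10.7 CPM (-2.17 ± 0.21, edgeR adjusted p = 5.63e-05). The groups did not overlap for either.

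**Figure D2:**
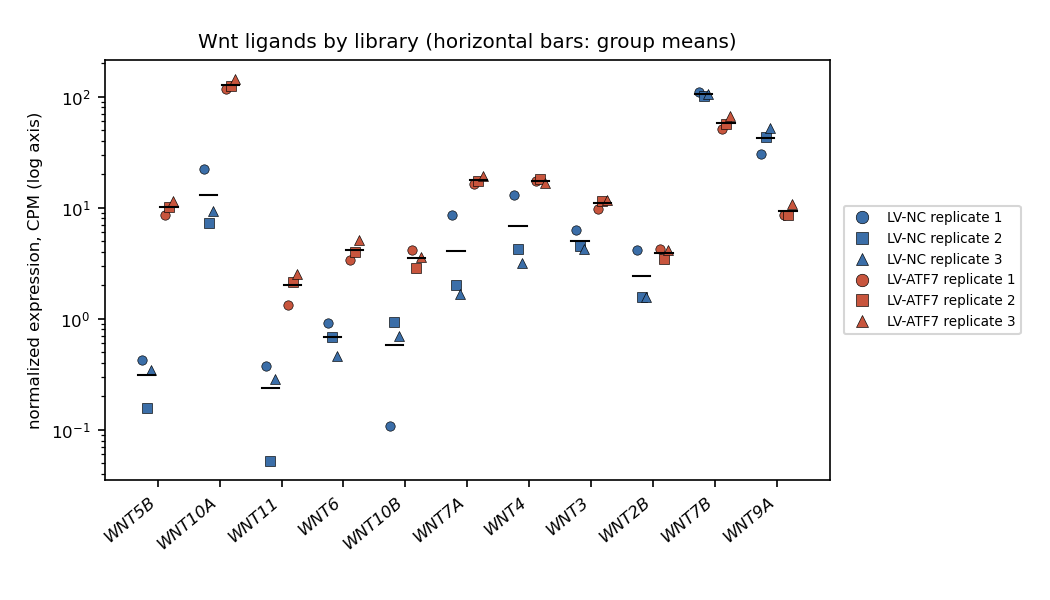
Normalized expression (CPM, log axis) of the 11 Wnt ligands in each library, LV-NC in blue and LV-ATF7 in red, with a marker shape for each replicate and a horizontal bar at each group mean. LV-NC replicate 1 (blue circle) lies above the other LV-NC libraries for *WNT10A*, *WNT7A*, *WNT4* and *WNT2B* and below them for *WNT10B* and *WNT9A*.

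Per kilobase of annotated exon, the summed ligand level was 43.3, 36.6 and 39.5 CPM per kb under the LV-NC label and 62.5, 67.4 and 77.2 CPM per kb under the LV-ATF7 label, without overlap. *WNT7B* made up 52.6% ± 2.40 (SD, n = 3) of this sum under the LV-NC label and 16.7% ± 0.54 under the LV-ATF7 label. *WNT9A* went from 27.0% ± 8.07 to 3.41% ± 0.15. In their place *WNT10A* went from 15.0%, 5.87% and 6.96% (mean 9.28%) in LV-NC replicates 1 to 3 to 54.4% ± 0.14 of the ligand sum. LV-NC replicate 1 had the highest *WNT10A* share of its group. With the deposited FPKM values in place of CPM per kb, *WNT10A* still went from 12.1% to 63.0% and *WNT7B* from 39.1% to 11.0%, while *WNT9A* (38.1%) came close to *WNT7B* in the LV-NC libraries.

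**Figure D3:**
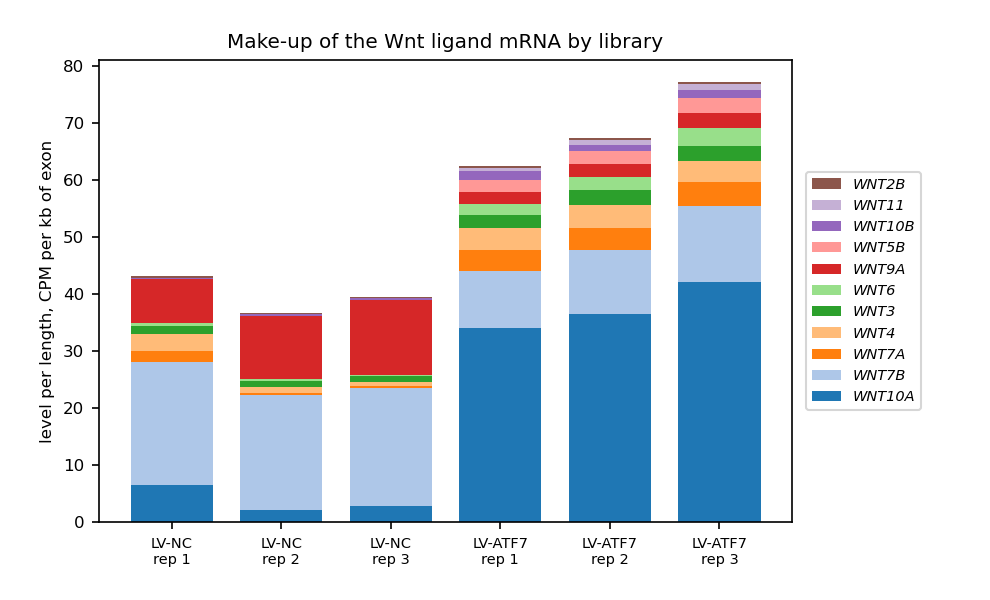
Level per length (CPM per kb of exon) of the 11 ligands stacked for each library. *WNT7B* and *WNT9A* fill most of the LV-NC bars, *WNT10A* fills 54.3% to 54.6% of each LV-ATF7 bar, and the summed level is higher in all LV-ATF7 libraries.

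Both genes for ligand processing were higher. *PORCN*, the acyltransferase that lipidates Wnt proteins, measured 24.9, 24.1 and 23.8 CPM against 51.1, 56.2 and 61.6 CPM (log2 fold change 1.21 ± 0.10, edgeR adjusted p = 3.11e-05). *WLS*, the transporter that escorts lipidated Wnt to the surface, measured 58.2, 60.1 and 59.6 CPM against 93.9, 94.2 and 103 CPM (0.71 ± 0.09, edgeR adjusted p = 1.89e-04). LV-NC replicate 1 did not stand apart for either gene, and the spread within groups was small beside the difference.

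Frizzled receptors went mostly the other way. Of 9, 6 were lower, *FZD2* was higher, and *FZD4* and *FZD5* did not pass. *FZD1* measured 159, 121 and 123 CPM against 57.2, 59.0 and 56.5 CPM, 2.33-fold lower (edgeR adjusted p = 7.13e-05). *FZD7*, a receptor linked to stem cells in several epithelia, measured 152, 92.9 and 102 CPM against 45.0, 45.9 and 48.3 CPM (log2 fold change -1.32 ± 0.18, edgeR adjusted p = 3.43e-04). For both, LV-NC replicate 1 was the highest library of all.

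*FZD8* measured 27.6, 29.3 and 30.3 CPM against 8.43, 10.9 and 9.90 CPM, a tight separation (log2 fold change -1.57 ± 0.14, edgeR adjusted p = 3.19e-05). *FZD9* was scarce, at 1.98, 6.66 and 7.41 CPM against 0.614, 1.12 and 0.442 CPM, and the LV-NC libraries differed among themselves (-2.85 ± 0.56, edgeR adjusted p = 0.00229). *FZD3* and *FZD6*, which are best known from planar cell polarity, were lower, with log2 fold changes of -0.62 and -0.60 (edgeR adjusted p = 0.00248 and 0.00244). *FZD2* measured 19.4, 16.1 and 15.9 CPM against 63.1, 59.2 and 69.6 CPM, 3.73-fold higher (edgeR adjusted p = 8.17e-06), and no library of either group approached the other group.

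*FZD4*, at 8.19, 17.1 and 16.4 CPM against 9.15, 9.48 and 9.46 CPM, did not pass (log2 fold change -0.57, edgeR adjusted p = 0.0890), with LV-NC replicate 1 below the LV-ATF7 libraries. Without that library its log2 fold change was -0.86 and it passed (edgeR adjusted p = 8.06e-07). With all libraries *FZD4* also passed with library size only (edgeR adjusted p = 0.0338) and with sample weights (limma adjusted p = 9.59e-07). Another annotated gene shares 19.0% of the *FZD4* exon bases. *FZD5* had a log2 fold change of -0.10 ± 0.14 (edgeR adjusted p = 0.566), which turned to 0.063 without LV-NC replicate 1 and to 0.060 with sample weights.

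Summed per kilobase of exon, frizzled receptors stood at 133 ± 16.6 CPM per kb (SD, n = 3) under the LV-NC label and 99.6 ± 2.42 CPM per kb under the LV-ATF7 label. *FZD2* went from 6.09% to 30.4% of the sum, *FZD7* from 22.2% to 12.1% and *FZD1* from 14.4% to 8.31%. The *FZD2* change was nearly the same in the deposited FPKM values (5.62% to 30.7%). In FPKM *FZD7* went from 30.8%, the largest share under the LV-NC label, to 18.4%, and *FZD1* from 24.0% to 15.2%. The direction of these 2 changes was kept, but the size of the shares depended on the length used. *FZD6* held 40.3% and 35.5% by annotated exon length but 13.5% and 13.1% in FPKM, so its place in the order depended on the length used.

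**Figure D4:**
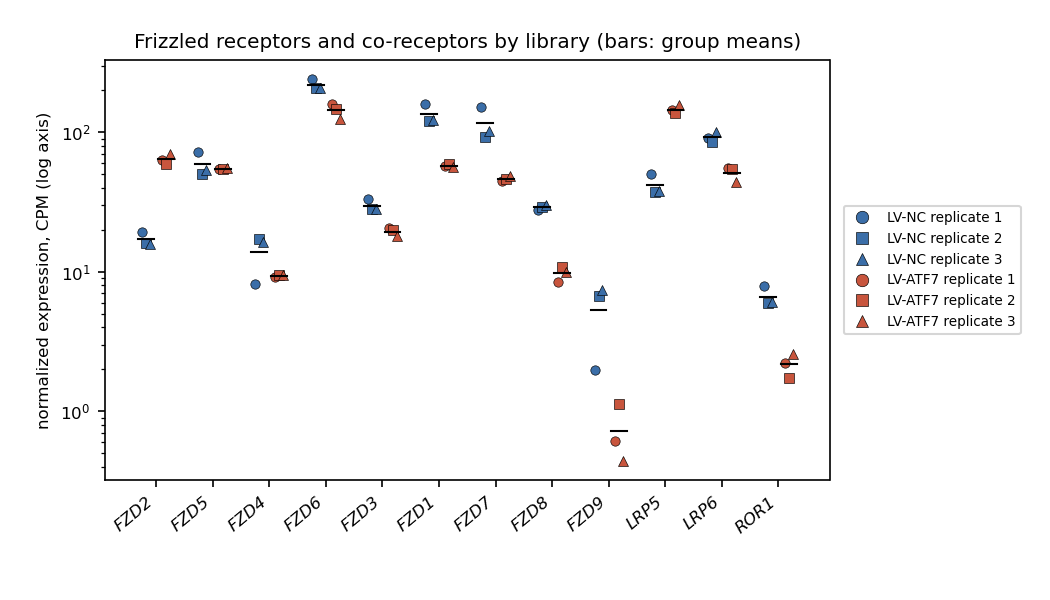
Normalized expression (CPM, log axis) of the 9 frizzled receptors and of *LRP5*, *LRP6* and *ROR1* in each library, with a bar at each group mean. *FZD2* and *LRP5* are higher in all libraries labeled LV-ATF7, and *FZD4* and *FZD5* overlap between the groups.

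The co-receptors exchanged places. *LRP5* measured 50.4, 37.2 and 37.9 CPM against 144, 136 and 155 CPM (log2 fold change 1.79 ± 0.14, edgeR adjusted p = 1.84e-05). *LRP6*, its close relative with the same role, measured 90.3, 84.3 and 100 CPM against 55.5, 54.2 and 44.1 CPM (-0.84 ± 0.12, edgeR adjusted p = 4.74e-04). *LRP6* was above *LRP5* in each library labeled LV-NC and below it in each labeled LV-ATF7, also per kilobase of exon. Of the level per kb summed over *LRP5*, *LRP6* and *ROR1*, *LRP5* made up 40.6% ± 4.32 (SD, n = 3) under the LV-NC label. Under the LV-ATF7 label it made up 81.6% ± 2.42. *ROR1*, a receptor tyrosine kinase for Wnt ligands outside the beta-catenin branch, measured 7.87, 5.98 and 6.08 CPM against 2.23, 1.73 and 2.60 CPM (-1.60 ± 0.22, edgeR adjusted p = 3.68e-04).

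The R-spondin branch sets how long frizzled receptors stay at the surface, and of its 3 genes 1 was higher, 1 was lower and 1 did not pass. *LGR4*, an R-spondin receptor, was lower (log2 fold change -0.31, edgeR adjusted p = 0.0304), and this call was lost without LV-ATF7 replicate 2 or 3 (edgeR adjusted p = 0.107 and 0.0951). *ZNRF3*, a ubiquitin ligase that removes frizzled receptors, did not pass (-0.20 ± 0.11, edgeR adjusted p = 0.140), though it did with library size only and with sample weights (adjusted p = 0.0236 and 0.0272). *RNF43*, its relative, was higher (0.88 ± 0.20, edgeR adjusted p = 0.00454) at 3.93 to 5.19 CPM against 6.91 to 9.99 CPM, but 73.9% of its exon bases are shared with other annotated genes, so its counts are uncertain. Smaller overlaps, each under 10% of exon bases, affect other Wnt genes, the largest in *DKK1* (9.61%), *WNT11* (8.5%), *DACT1* (8.42%) and *LEF1* (5.2%). Those of *DKK1*, *WNT11* and *LEF1* are with genes on the opposite strand.

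Of the secreted antagonists, *DKK1* and *DKK3* were analysed. *DKK1*, which blocks LRP5 and LRP6, measured 33.8, 32.4 and 28.3 CPM against 13.5, 12.7 and 10.8 CPM, 2.55-fold lower without overlap (edgeR adjusted p = 6.67e-05). *DKK3*, a divergent family member whose link to Wnt receptors is less clear, measured 11.1, 47.8 and 43.5 CPM against 16.0, 17.2 and 16.8 CPM. LV-NC replicate 1 lay below every library labeled LV-ATF7, and *DKK3* did not pass (log2 fold change -1.04 ± 0.45, edgeR adjusted p = 0.0728). Without that library it was -1.47 (edgeR adjusted p = 8.78e-13). With all libraries *DKK3* also passed with DESeq2 (DESeq2 adjusted p = 0.0164), library size only (edgeR adjusted p = 0.0442) and sample weights (limma adjusted p = 2.22e-09).

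Inside the cell, 2 of the 3 dishevelled genes, which relay the signal from frizzled, were higher and both *DACT* genes were lower. *DVL1* was higher at 60.1, 56.7 and 49.5 CPM against 106, 104 and 120 CPM (log2 fold change 0.99 ± 0.11, edgeR adjusted p = 1.14e-04), and *DVL2* was higher by 0.81 ± 0.11 (edgeR adjusted p = 3.15e-04). *DVL3*, the most abundant dishevelled gene per kilobase in both groups, did not pass (-0.17 ± 0.10, edgeR adjusted p = 0.178), though it passed with library size only and with sample weights (adjusted p = 0.0233 and 0.0279), and its share of the dishevelled sum went from 60.3% to 42.2%.

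*DACT1* and *DACT3* encode proteins that bind dishevelled and limit its signaling. *DACT3* had 53, 135 and 116 counts in LV-NC replicates 1 to 3 and 0, 0 and 2 counts in LV-ATF7 replicates 1 to 3. The ratio of the summed rates, LV-NC over LV-ATF7, was 154 with a 95% interval of 42.2 to 1274, which covers counting error only (edgeR adjusted p = 9.04e-05). Both LV-ATF7 counts of *DACT3* came from replicate 3, and the gene also passed without that library (edgeR adjusted p = 0.00212). *DACT1* measured 5.57, 1.57 and 2.14 CPM against 0.223, 0.714 and 0.276 CPM, without overlap. Its log2 fold change was -2.89 ± 0.63 (edgeR adjusted p = 0.00398), -2.16 without LV-NC replicate 1 and -3.59 without LV-ATF7 replicate 2.

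Promoter sequences of *DVL1* and *DACT3* are shown as the dishevelled gene and the dishevelled antagonist with the largest folds in either direction. They are the 250 bases before the annotated start in RefSeq (GRCh38.p14, minus strand, *DVL1* at chr1:1349419-1349668 and *DACT3* at chr19:46661183-46661432), in lower case with motif matches in capitals. The motifs searched on both strands were TGACGTCA, the cAMP response element bound by ATF/CREB factors, its part TGACG, the AP-1 site TGANTCA and the TCF/LEF site CTTTGAT.
DVL1: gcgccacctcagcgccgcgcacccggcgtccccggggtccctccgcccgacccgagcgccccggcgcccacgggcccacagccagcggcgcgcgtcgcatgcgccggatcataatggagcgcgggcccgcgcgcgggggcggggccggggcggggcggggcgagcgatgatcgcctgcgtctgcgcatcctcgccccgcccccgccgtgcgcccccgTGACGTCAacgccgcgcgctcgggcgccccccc
DACT3: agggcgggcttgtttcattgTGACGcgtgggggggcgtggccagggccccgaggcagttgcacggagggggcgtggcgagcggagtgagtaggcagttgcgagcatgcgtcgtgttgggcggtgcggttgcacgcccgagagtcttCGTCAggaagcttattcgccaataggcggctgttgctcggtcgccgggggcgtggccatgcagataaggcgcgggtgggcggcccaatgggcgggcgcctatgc

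In *DVL1* the capitals mark TGACGTCA, 33 bases before the start, which also holds TGACG on both strands. In *DACT3* they mark TGACG, 230 bases before the start and reading along the gene, and its reverse complement 104 bases before the start. Of the 41 Wnt genes, 31 had a promoter entry (43 windows). *DVL1* was the only one with TGACGTCA (1 of 43 windows), which occurred in 1.63% of all 34943 windows. TGACG was present in 8 of the 43 windows, of 7 genes (*DACT1*, *DACT3*, *DVL1*, *DVL2*, *TCF7L2*, *WLS* and *WNT5B*), and in 21.2% of all windows. Both *DACT* genes were lower and the other genes with TGACG higher, and a link between motif and direction was not tested. *DACT1*, *DACT3*, *TCF7L2* and *WNT5B* also had windows without TGACG. The *WLS* windows overlap and hold the same site, which was counted in each. TGANTCA was found in *RNF43* only (1 of 43 windows, against 6.59% of all windows) and CTTTGAT in none of them (2.27%). These matches describe letters in the windows and not binding.

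Scaffolds of the destruction complex were lower or did not pass. *APC* measured 72.8, 60.2 and 61.3 CPM against 47.1, 38.7 and 33.1 CPM (log2 fold change -0.71 ± 0.15, edgeR adjusted p = 0.00312). *AXIN1* measured 155, 168 and 173 CPM against 138, 129 and 153 CPM, without overlap, yet did not pass (-0.24 ± 0.10, edgeR adjusted p = 0.0601). It passed without LV-NC replicate 1 (edgeR adjusted p = 6.80e-04) and without LV-ATF7 replicate 3 (edgeR adjusted p = 0.0332), and also with DESeq2, library size only, at least 10 counts in every library and sample weights (adjusted p from 2.71e-05 to 0.0413).

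The TCF/LEF factors, which bring beta-catenin to its target genes, were split. *TCF7L2*, the most abundant of them per length, rose from 22.2, 17.4 and 17.4 CPM to 31.4, 27.6 and 30.1 CPM (log2 fold change 0.64 ± 0.14, edgeR adjusted p = 0.00342). *TCF7L1*, mostly known as a repressor and a marker of follicle stem cells, rose from 0.535, 0.472 and 0.637 CPM to 1.45, 1.07 and 1.27 CPM (1.20 ± 0.30, edgeR adjusted p = 0.00830). In contrast, *TCF7*, itself a frequent target of the pathway, fell from 2.03, 1.78 and 3.07 CPM to 0.279, 0.357 and 0.498 CPM (-2.58 ± 0.36, edgeR adjusted p = 4.06e-04).

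*LEF1* measured 8.25, 5.35 and 5.67 CPM against 3.68, 4.995 and 3.59 CPM, and the groups came close at LV-NC replicate 2 and LV-ATF7 replicate 2 (log2 fold change -0.65 ± 0.24, edgeR adjusted p = 0.0385). This call was lost without LV-ATF7 replicate 1 or 3 (edgeR adjusted p = 0.123 and 0.130) and with the replicate block (0.0658). With sample weights the log2 fold change of *LEF1* was -0.31 (limma adjusted p = 0.0838). *TCF7* and *TCF7L1* rested on few reads, with 21 counts in the LV-ATF7 libraries and 30 counts in the LV-NC libraries together. Per kilobase of exon, *TCF7L2* made up 64.6% of the TCF/LEF sum under the LV-NC label and 80.2% under the LV-ATF7 label. In the deposited FPKM these shares were 47.3% and 57.9%, with *TCF7L1* at 14.2% and 25.4% in place of 2.88% and 5.20%, so the size of the *TCF7L2* share depended on the length used.

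**Figure D5:**
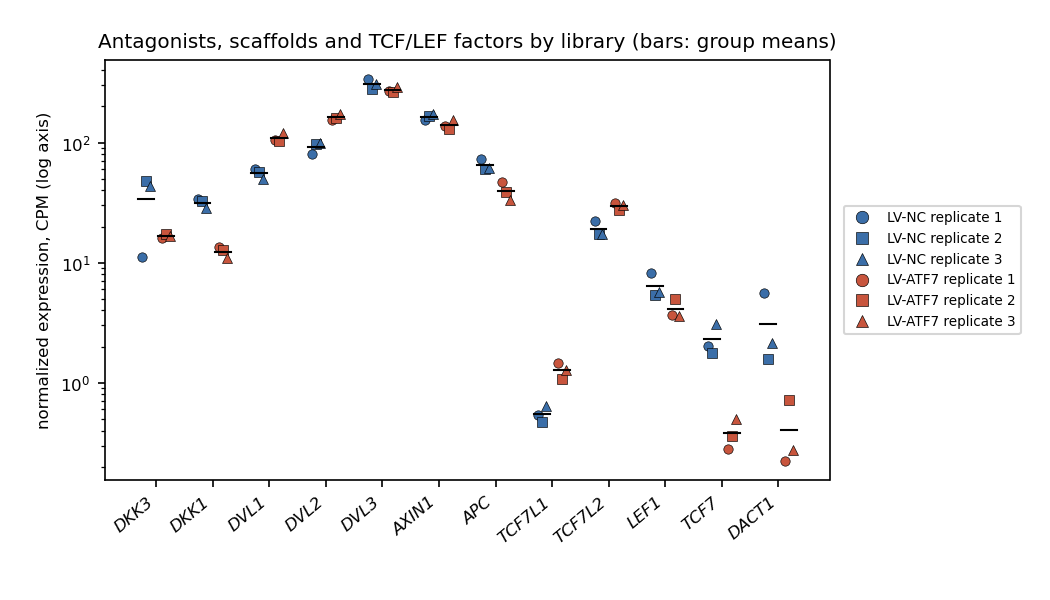
Normalized expression (CPM, log axis) of secreted antagonists, dishevelled genes, scaffolds, TCF/LEF factors and *DACT1* in each library, with a bar at each group mean. *DACT3* is not drawn because 2 of its libraries are at 0. LV-NC replicate 1 (blue circle) lies below all other libraries for *DKK3*.

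Of 94 pathway genes outside the set that were analysed, 39 were higher and 32 lower, where 34.7% and 32.9% of all genes were. With a fold of at least 1.5 the counts were 33 and 22, where 28.2% and 24.6% of all genes passed. These shares of all genes are also the background of the 5 lists that follow. Among 18 destruction complex members and kinases, 3 were higher and 10 lower (median log2 fold change -0.36, against 0.00 over all genes). *CTNNB1*, which encodes beta-catenin, was lower (-0.52, edgeR adjusted p = 0.00433), as were *CSNK1A1*, a kinase that primes beta-catenin for degradation (-1.16, edgeR adjusted p = 2.57e-05), the phosphatase subunit *PPP2R1A* (-0.76) and the tankyrase *TNKS2*, which marks AXIN for removal (-0.70). *AMER1*, a membrane anchor of the complex, was higher by 1.86 (edgeR adjusted p = 2.07e-05), followed by *CSNK1G2* (0.61) and *CSNK1E* (0.48), and *GSK3B* did not pass (-0.15, edgeR adjusted p = 0.143). Without LV-NC replicate 1 *GSK3B* passed at a small fold (-0.19, edgeR adjusted p = 0.0152), as it did with library size only or with sample weights (adjusted p = 0.0107 and 0.0243). Of the exon bases of *CSNK1A1*, 37.4% are shared with other annotated genes, and of those of *CSNK1E* 21.1%.

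Among 19 nuclear partners of beta-catenin, 8 were higher and 5 lower (median log2 fold change 0.16). The corepressors of the Groucho family were split: *TLE2* went from 3.37, 1.21 and 1.04 CPM to 51.6, 55.5 and 62.5 CPM (4.90 ± 0.37, edgeR adjusted p = 1.70e-05; 5.62 without LV-NC replicate 1, the highest of its group) and the short member *TLE5* was higher by 1.69, while *TLE4*, *TLE3* and *TLE1* were lower (-1.23, -1.07 and -0.96). *TBL1X*, part of a corepressor complex that also binds beta-catenin, was higher by 3.61 (edgeR adjusted p = 2.77e-06).

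Of 12 secreted or membrane modulators of Wnt signaling analysed, activators and inhibitors together, 8 were higher and 3 lower (median 0.64). The inhibitor *APCDD1* measured 2.57, 1.42 and 0.753 CPM against 16.4, 18.6 and 18.4 CPM (3.48 ± 0.34, edgeR adjusted p = 6.21e-05). *IGFBP4*, an IGF-binding protein that also antagonizes Wnt, was higher by 4.51 and *KREMEN2*, a DKK1 receptor, by 1.14, whereas *TSPAN12*, *LMBR1L* and *ATP6AP2* were lower (-0.80, -0.55 and -0.54). Other annotated genes share 13.8% of the *KREMEN2* exon bases. The R-spondin genes themselves were not analysed here.

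Of 23 planar cell polarity and related genes, 14 were higher and 5 lower (median 0.49). The core polarity gene *VANGL2* was higher by 3.05 (edgeR adjusted p = 3.17e-05), *INVS* by 1.17 and the co-receptor *PTK7* by 0.96, and *MAPK8* (JNK1), *DAAM1* and *NFATC3* were lower (-1.50, -1.17 and -1.12), although 36.3% of the *NFATC3* exon bases are shared. Of 22 genes described as beta-catenin targets, 6 were higher and 9 lower (median -0.58). *MYC* measured 210, 153 and 153 CPM against 792, 795 and 810 CPM (2.22 ± 0.14, edgeR adjusted p = 8.27e-06), and *TRIB2* and *CCND1* were higher by 2.32 and 1.62. Of the *CCND1* exon bases 10.3% are shared, and of those of *TLE5* 10.7%. *PLAUR*, *FOSL1* and *ID2* were lower (-3.35, -1.95 and -1.89). The target genes named here, higher or lower, also respond to other pathways. For *PLAUR* and *FOSL1*, LV-NC replicate 1 (48.8 and 73.8 CPM) lay between the other LV-NC libraries (106 and 108 CPM, and 158 and 153 CPM) and the libraries labeled LV-ATF7.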

How the data were processed

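RNA-seq was analysed for 6 HaCaT libraries (3 labeled LV-NC, 3 labeled LV-ATF7). The authors deposited 1 table with raw read counts and FPKM per gene. FPKM values were used only for shares. GRCh38 is named in the submitters' processing notes, and the aligner, counter, annotation and strandedness are not given in the sources used here. Columns were matched to samples by library name, and 0 columns of values lacked a sample. The deposited fold changes and p-values were not used. Each of the 12499 genes had at least 51 counts over the 6 libraries, and total counts were 16686472 to 20562768.

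Counts were fitted with edgeR 4.0.16 (R 4.3.3): TMM scaling, filterByExpr (12462 genes kept), quasi-likelihood F test, Benjamini-Hochberg adjustment over all genes tested, called at 0.05. The standard error is the size of the log2 fold change over the square root of F. Gene length was the union of GENCODE 29 exons (12485 genes matched). Promoters were RefSeq windows. The fit was tested on simulated counts with few changed genes and no outlying library, so its behavior under the conditions of these data was not tested.

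The members and gene lists were chosen with earlier results of these data known. Values in all libraries are given for Wnt genes with an adjusted p under 0.05, a fold of at least 2 and a mean of at least 20 counts, and for *LEF1*, *TCF7*, *TCF7L1*, *TCF7L2*, *LRP5*, *LRP6*, *WLS*, *PORCN* and *APC*. Of the other pathway lists, up to 3 rises and 3 falls with the largest fold and a mean of at least 50 counts are named, with *CTNNB1* and *GSK3B*. Per-library values of further genes were chosen after their values were seen. No source says that the replicates were separate cultures, so p-values measure the spread between these libraries, which may be technical. Alternatives were limma 3.58.1 (voom with sample quality weights), DESeq2 1.42.0, scaling by library size alone or by upper quartile, dropping the filter or asking for 10 counts or more in each library, a replicate block, leaving out each library, a fold of 2, and FPKM for shares.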

Additional observations from a re-analysis of the deposited data

How the results depend on the processing

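The 34 Wnt calls were 36 with DESeq2, 38 with library size only, 34 with upper quartile scaling or no filter, 39 with sample weights and 32 to 38 with 1 library left out. Among all genes tested, 67.6% passed in the reported fit and with DESeq2, 68.7% with library size only and 83.4% with sample weights. Without LV-NC replicate 1 the share was 80.1%, and with any other 1 library left out it was 58.3% to 61.9%. With at least 10 counts in every library 26 passed, 25 of them among the 34, because 9 low genes were not tested, and the ligands called higher dropped from 8 to 4. The ligands called higher numbered 7 to 9 and the frizzled receptors called lower 6 to 7 when 1 library was left out. With a fold of 2 in place of 1.5, 22 Wnt genes passed in place of 33, against 32.8% of all genes. Other pathway genes past a fold of 1.5 numbered 49 to 60 over all alternatives, against 55. *FZD5* changed sign with sample weights (0.060) and without LV-NC replicate 1 (0.063), and ranged from -0.24 to 0.063 with 1 library left out. Library size only moved the median over all genes tested by -0.16 (log2) and took the share of calls that were higher from 51.3% to 42.4%. *WNT4* lost its call there (log2 fold change 1.17, edgeR adjusted p = 0.0625), and the cause was not tested. Replicate numbers did not pair the libraries (correlations of same-numbered deviations 0.058, -0.021 and 0.065). With the replicate block, 33 Wnt genes passed and *LEF1* was lost. Genes near 1 CPM are limited by depth, and intervals cover counting error only.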
